A study of Mus musculus with 8 samples.

Results

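The Iroquois homeobox genes Irx1 to Irx6 were followed in sorted mouse mammary gland cells. All 6 were found by gene name among the 49671 genes of the deposited table, and 5 of the 6 passed the filter on low values. RNA had been sequenced in 8 libraries, 2 in each of 4 groups, from cells without CD45, CD31 and CD140a, which mark leukocytes, vessels and stroma on the cell surface. CD24-positive cells with low CD29 (luminal, 40000 cells) and with high CD29 (basal, 5000 cells) came from female CD1 mice, and the same gates were taken from female mice labelled K8rtTA/TetOCre/Rosa26-DNp63-IRES-GFP, as GFP-positive cells (called DNp63 here). In these mice keratin 8-expressing cells make the doxycycline-dependent activator rtTA, which drives Cre, and Cre releases ΔNp63, the p63 form normal to basal cells, together with GFP from the Rosa26 locus. All mice were of mixed genetic backgrounds per the labels' protocols. The labels read here state neither ages nor when the DNp63 mice were induced. Strain, transgenes, doxycycline and the GFP gate differ together between CD1 and DNp63 groups and cannot be told apart. Nothing says that the pair of libraries in a group comes from different animals, so p-values measure only the spread between these libraries.

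Iroquois proteins are transcription factors of the TALE homeodomain class, whose homeodomain carries an insertion of 3 amino acids between its first helices. They are known for patterning fields of cells during development, among them heart, limb, nervous system, lung and kidney. In mammals the genes lie in a pair of clusters of 3, called IrxA and IrxB, which arose by duplication. IrxA holds Irx1, Irx2 and Irx4, and IrxB holds Irx3, Irx5 and Irx6. The members were chosen by gene name, and the family was selected on an earlier result of these data, the difference of Irx4 between the CD1 basal and CD1 luminal libraries. That contrast is therefore described for the family without a test, and tests are given for the DNp63 comparisons.

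On the GRCm38 assembly with GENCODE M21, IrxA spans 1.312 Mb of chromosome 13 (71957921 to 73269608). Irx1 lies at 71957921 to 71963723 on the minus strand, Irx2 at 72628820 to 72634198 and Irx4 at 73260479 to 73269608 on the plus strand. The gaps are 665.1 kb between Irx1 and Irx2 and 626.3 kb between Irx2 and Irx4. IrxB spans 0.882 Mb of chromosome 8 (91798525 to 92680956), with Irx3 at 91798525 to 91802067 on the minus strand, and Irx5 at 92357625 to 92376286 and Irx6 at 92674288 to 92680956 on the plus strand. All 6 are protein-coding genes, with 2607 to 3370 bases of exon.

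Promoter windows from RefSeq (GRCm38.p6) matched 3 members, Irx2, Irx3 and Irx4. The windows run from 250 bases before to 50 bases after the annotated start. Irx2 and Irx4 are shown because these neighbours of the same cluster had the flattest and the steepest gate difference within IrxA. Each is printed 5′ to 3′ up to the first annotated transcript start, in lower case with CpG dinucleotides in capitals.
Irx2, chr13:72628570-72628819, plus strand: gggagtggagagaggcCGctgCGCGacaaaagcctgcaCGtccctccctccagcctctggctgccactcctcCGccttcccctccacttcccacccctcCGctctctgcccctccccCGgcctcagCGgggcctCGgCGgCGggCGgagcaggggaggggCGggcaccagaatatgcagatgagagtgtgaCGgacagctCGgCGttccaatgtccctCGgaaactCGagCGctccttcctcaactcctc
Irx4, chr13:73260247-73260478, plus strand: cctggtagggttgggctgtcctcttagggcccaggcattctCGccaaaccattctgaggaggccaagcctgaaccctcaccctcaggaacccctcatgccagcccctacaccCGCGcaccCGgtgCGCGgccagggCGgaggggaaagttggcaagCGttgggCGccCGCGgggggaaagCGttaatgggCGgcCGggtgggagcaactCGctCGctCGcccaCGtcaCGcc
Both printed stretches hold 19 CpG. Over the whole 300-base windows Irx2 had 25 CpG, Irx4 31 and Irx3 14, against a median of 7 over 32544 distinct windows of the same length. GC content was 69.0% in Irx2, 70.67% in Irx4 and 56.0% in Irx3, against a median of 53.0%. The core of a p63 site, a pair of CATG with 6 bases between them (its own reverse complement, so both strands are read), was found in none of the 3 windows and in 0.624% of all windows. The single core CATG was found 1 time in Irx4, in the stretch above, and not in Irx2 or Irx3, and 60.967% of all windows hold it. The TATA box letters TATAAA were in none of the 3 windows on either strand and in 13.569% of all windows. These letters say nothing of binding outside the windows.

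The reads recovered numbered 4136986 to 7206703 per library, so that 1 read was worth 2.78 to 4.83 units. Levels are given as deposited, in reads per 20000000 (called units below). Trp63, the gene for p63 and the check of the transgene, stood at 61 and 45 units in CD1 luminal and 1297 and 1460 in DNp63 luminal libraries, and among basal libraries 5457 and 7079 in those of CD1 and 8088 and 8306 in those of DNp63 mice. The sum of 10 basal epithelial markers was 1919 to 4411 in luminal and 215664 to 233746 in basal libraries, and that of 10 luminal markers 240071 to 272601 in luminal libraries. Among basal libraries the luminal sum was 41293 and 37072 for CD1 and 16244 and 18327 for DNp63 mice. Markers of endothelial cells, adipocytes and pericytes were higher in the basal gate. Summed endothelial markers (8 genes) went from 920 to 1504 in luminal to 33317 to 48462 in basal libraries. Adipocyte markers (7 genes) went from 420 to 669 to 14917 to 26466, and pericyte markers (7 genes) from 4216 to 5839 to 17249 to 23041. Fibroblast markers (8 genes) stood at 9144 and 44234 in CD1 luminal and at 17078 and 9879 in DNp63 luminal libraries. In CD1 basal libraries they stood at 16411 and 45925, overlapping CD1 luminal, and in DNp63 basal at 68361 and 90605. Of these 8 genes 0 were called between the CD1 gates. The part of such cells in the Irx values was not tested, and in these bulk samples fewer cells of a type and less RNA per cell cannot be told apart.

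Irx4, known for its role in the ventricles of the heart, was a transcript of the basal gate. It stood at 11 and 4 units in the CD1 luminal libraries, which is 3 reads and 1 read, and at 2175 and 1537 in the CD1 basal libraries. In DNp63 mice it stood at 28 and 16 units in the luminal libraries (10 and 4 reads) and at 2453 and 2418 in the basal libraries. All 4 basal libraries lay far above all 4 luminal libraries. Within each gate both DNp63 libraries lay above both CD1 libraries, in the luminal gate on few reads, and neither difference was called. With 2 libraries a group such an order is easily met, here and below, and its share over all genes was not taken.

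Because so few luminal reads carried Irx4, its ratio was also taken from pooled reads per depth. In CD1 mice 860 basal reads against 4 luminal reads gave a ratio of 253.1 (95% exact interval 98.5 to 930.9). In DNp63 mice 1082 basal against 14 luminal reads gave 107.2 (63.6 to 196.7). These intervals pool the 2 libraries of a group, so they cover counting error only and not the spread between libraries. The deposited values carry no molecular identifiers, so reads copied from the same molecule cannot be told apart.

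**Figure D1:**
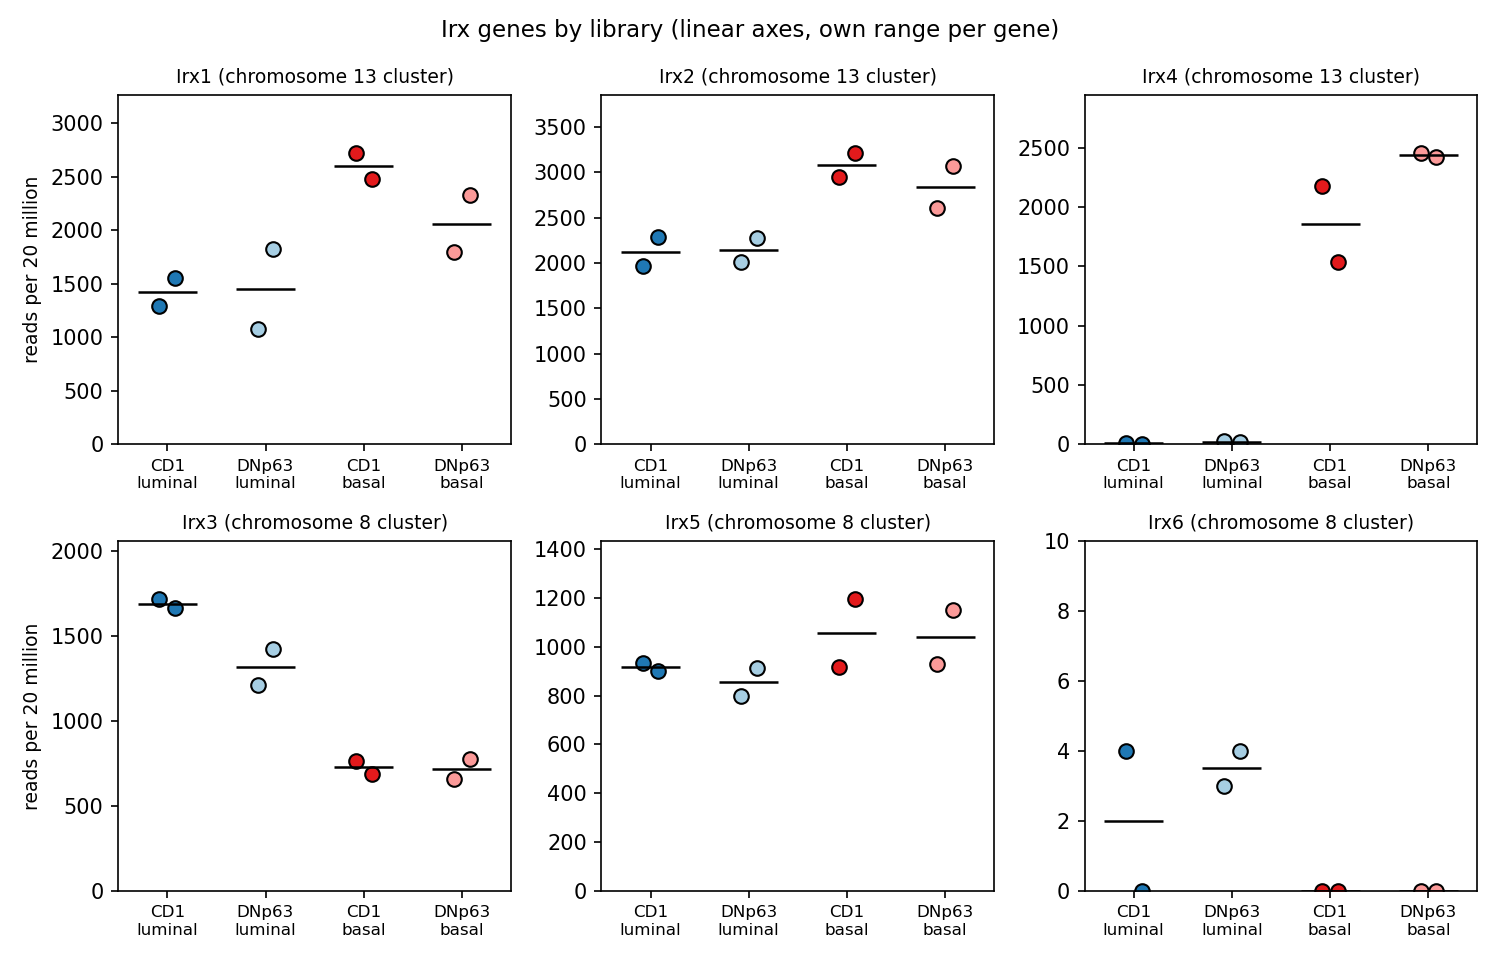
Values of the 6 Irx genes in each library, in reads per 20000000 on linear axes with a separate range per gene; points are libraries and bars are group means (n = 2). Irx4 separates the gates (4 to 28 units luminal, 1537 to 2453 basal), Irx3 is higher in luminal libraries, and Irx6 stays at or under 4 units.

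Irx1 and Irx2, the other members of IrxA, were present in both gates. Irx1, known from lung, kidney and digit development, stood at 1291 and 1553 units in CD1 luminal and 2720 and 2476 in CD1 basal libraries. In DNp63 mice it stood at 1074 and 1824 in luminal and at 1800 and 2326 in basal libraries. The CD1 gates did not overlap, whereas the DNp63 gates did, since the second DNp63 luminal library lay above the first DNp63 basal library.

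Irx2, which lies between Irx1 and Irx4, had the smallest gate difference of the IrxA genes. It stood at 1965 and 2286 units in CD1 luminal and 2010 and 2278 in DNp63 luminal libraries, and among basal libraries 2944 and 3210 in those of CD1 and 2605 and 3066 in those of DNp63 mice. All 4 basal libraries were above all 4 luminal libraries.

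Irx3 of IrxB, known from limb, heart conduction and hypothalamic development, ran the other way. The CD1 luminal libraries held 1717 and 1664 units of it and the DNp63 luminal ones 1210 and 1425. Basal libraries of CD1 mice held 765 and 687, against 658 and 774 in those of DNp63 mice. All 4 luminal libraries were above all 4 basal libraries. Among luminal libraries both DNp63 libraries were below both CD1 libraries, a difference that was not called.

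Irx5, which acts with Irx3 in heart and limb, was nearly level. It stood at 933 and 901 units in CD1 luminal and 797 and 912 in DNp63 luminal libraries. Among basal libraries it stood at 916 and 1194 in those of CD1 and 928 and 1151 in those of DNp63 mice. The gates overlapped in CD1 mice, whereas both DNp63 basal libraries lay above both DNp63 luminal libraries. Irx6, known from retinal interneurons, had 1, 0, 1 and 1 reads in the 4 luminal libraries and 0 in the 4 basal libraries. A count of 0 allows up to 3 reads, which is 11.1 to 14.5 units in the libraries at 0, and a count of 1 allows more reads. A gate difference of Irx6 was therefore not detectable at this depth.

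Levels between genes were compared per kb of exon. In CD1 luminal libraries Irx2 (599 to 697 units per kb), Irx3 (602 to 622) and Irx1 (493 to 593) led, with the ranges of Irx2 and Irx3 overlapping. Irx5 (288 to 298) followed, then Irx4 (1.53 to 4.22) and Irx6 (at most 1.19). In DNp63 luminal libraries Irx2 (612 to 694) and Irx1 (410 to 696) overlapped, Irx3 (438 to 516) lay within the range of Irx1, and Irx5 (255 to 292) followed. In CD1 basal libraries the order by mean was Irx1 (945 to 1038), Irx2 (897 to 978), Irx4 (590 to 834), Irx5 (293 to 382) and Irx3 (249 to 277), with Irx1 and Irx2 overlapping. In DNp63 basal libraries Irx4 (928 to 941) and Irx2 (794 to 934) overlapped at the top, followed by Irx1 (687 to 888), which overlapped Irx2, and by Irx5 (297 to 368) and Irx3 (238 to 280). Thus Irx4 exceeded only Irx6 in each luminal library and was among the top 3 in each basal library. Irx3 went from the top 3 to rank 5, still at 238 to 280 units per kb in basal libraries, where Irx6 stood at 0.

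The IrxA and IrxB clusters differed in their summed level per kb. IrxA summed to 1095.7 and 1290.8 units per kb in CD1 luminal and 1033.1 and 1396.4 in DNp63 luminal libraries, and among basal libraries 2769.5 and 2512.7 in those of CD1 and 2421.7 and 2749.5 in those of DNp63 mice. IrxB summed, over the 4 groups taken in that order, to 921.2 and 890.6, 693.9 and 808.8, 569.9 and 630.6, and 535.0 and 648.3. The share of IrxA in the family sum was 56.7% ± 3.43 in CD1 luminal, 61.6% ± 2.48 in DNp63 luminal, 81.4% ± 2.12 in CD1 basal and 81.4% ± 0.697 in DNp63 basal libraries (SD, n = 2). In the basal libraries Irx4 alone supplied 18.8% to 31.8% of the family sum, and in the luminal libraries at most 0.622%. Members are not replicates of a cluster, and no test was made on these sums.

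**Figure D2:**
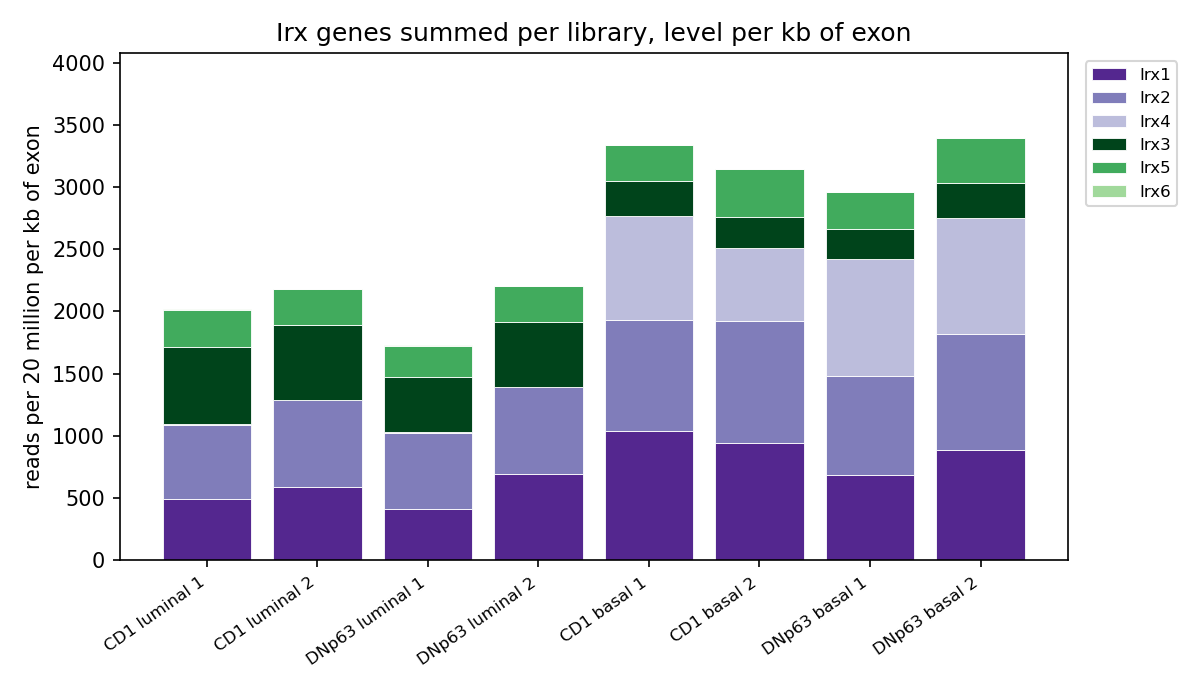
Stacked levels of the Irx genes per library, in reads per 20000000 per kb of exon (linear axis from 0), with IrxA genes in purple and IrxB genes in green. The basal bars are taller because of the IrxA segments, among them Irx4 (590 to 941 units per kb against at most 10.7 in luminal libraries), while the Irx3 segment is smaller.

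Within a cluster, ratios between neighbours also shifted between the gates. The ratio of Irx3 to Irx5, per kb, was 2.08 and 2.09 in CD1 luminal and 1.72 and 1.77 in DNp63 luminal libraries. Among basal libraries it was 0.946 and 0.651 for CD1 and 0.803 and 0.761 for DNp63 mice. Irx3 thus exceeded Irx5 in each luminal library and was below it in each basal library. Irx1 and Irx2 kept closer to each other, at ratios of 0.669 to 1.16 over the 8 libraries.

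Log2 profiles over the 8 libraries gave Pearson correlations of 0.93 between Irx1 and Irx2, 0.88 between Irx2 and Irx4, and -0.96 between Irx3 and Irx4. Between Irx3 and Irx5, of the same cluster, the correlation was -0.50, and between Irx2 and Irx5, of different clusters, 0.82. The 8 libraries share 2 gates, so these values describe the gate difference more than independent samples.

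In CD1 mice the basal minus luminal log2 differences, on values scaled between libraries with 8 units added, were 6.93 ± 0.32 (SE) for Irx4, 0.87 ± 0.24 for Irx1 and 0.53 ± 0.14 for Irx2. They were -1.22 ± 0.15 for Irx3 and 0.18 ± 0.18 for Irx5. Over all 16900 genes above the filter the median was -0.003, with quartiles of -0.52 and 0.76, and 44.3% were called (limma, adjusted p under 0.05), 24.5% higher and 19.8% lower in basal cells. The size of the Irx4 difference depends on the units added, at 7.88 with 1 unit and 5.57 with 32. Without the second CD1 basal library the Irx5 difference was -0.02.

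The same gates were compared in DNp63 mice. The group means came from libraries that the CD1 contrast did not use. The spread was estimated over all 8 libraries, so the CD1 libraries enter each p-value, and the test is not independent of them. Irx4 and Irx2 rose and Irx3 fell from DNp63 luminal to DNp63 basal cells, and Irx1 and Irx5 did not pass the test. These were 3 of the 5 members tested, where 48.3% of all genes were called (26.0% higher and 22.2% lower), so a share of this size is near the background. Irx4 rose by 6.45 ± 0.32 (SE, limma adjusted p = 1.98e-06), the rank of 12 from the top among 16900 genes, with libraries that did not overlap. It passed the filter, at least 40 units in at least 2 libraries, only through the basal libraries where it was high. The Irx4 difference was 6.86 with 1 unit added and 5.57 with 32, and with no filter it was also 6.45 (limma adjusted p = 9.4e-06). Irx3 fell by 0.79 ± 0.15 on the log2 scale (limma adjusted p = 0.0026), a fold of 0.578 with a 95% interval of 0.457 to 0.732. Irx2 rose by 0.48 ± 0.14 (limma adjusted p = 0.022), a fold of 1.397 (1.11 to 1.75). Irx1 differed by 0.63 ± 0.24 (limma adjusted p = 0.0588) and Irx5 by 0.36 ± 0.18 (0.137). Voom on recovered reads also called 3 of the 5.

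Single libraries decided the calls of Irx1 and Irx2 in this comparison. Irx2 was not called without the first (limma adjusted p = 0.132) or second DNp63 luminal library (0.0753), or without the second DNp63 basal library (0.145). Irx1 was called without the second DNp63 luminal library (0.94, limma adjusted p = 0.0129), and also without the first (0.0467) or second CD1 luminal library (0.0463). Its difference was 0.26 without the first DNp63 luminal library (0.387) and 0.43 without the second DNp63 basal library (0.292), against 0.63 with all libraries. Irx3 and Irx4 were called with any 1 library left out.

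The luminal comparison asks what differs in keratin 8-expressing cells that carry ΔNp63. None of the 5 members was called between DNp63 luminal and CD1 luminal cells in limma's test, where 4.37% of all genes were called (2.62% higher and 1.75% lower); 2 of the 5, Irx3 and Irx4, had an unadjusted p under 0.05, and voom called 0 (1 unadjusted). Irx4 differed by 0.92 ± 0.32 (SE, limma adjusted p = 0.173), a difference that rests on 4 reads in the CD1 luminal libraries and 14 in the DNp63 luminal libraries. Their read ratio was 3.14 (95% exact interval 0.985 to 13.1). The log2 difference was 1.46 with 1 unit added, 0.43 with 32 and 1.43 by voom, and 0.59 without the second CD1 luminal library. Irx3 differed by -0.42 ± 0.15 (0.188), with a 95% interval of the fold from 0.59 to 0.946.

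For the other members the intervals of the DNp63 luminal to CD1 luminal fold were 0.65 to 1.39 for Irx1, 0.774 to 1.22 for Irx2 and 0.67 to 1.19 for Irx5. With 1 of the 4 luminal libraries left out the Irx1 difference ranged from -0.44 (without the second DNp63 luminal library) to 0.30 (without the first). That of Irx2 ranged from -0.20 (without the first CD1 luminal library) to 0.06 (without the second) and that of Irx5 from -0.25 to -0.07 (without the second and the first DNp63 luminal library). With all libraries these were -0.07, -0.04 and -0.16. These intervals bound the differences and do not show that the groups were alike. Against the CD1 basal mean, Irx4 reached 1.51% and 0.862% in the DNp63 luminal libraries, where Trp63 reached 20.7% and 23.3%. In the CD1 luminal libraries these shares were 0.593% and 0.216% for Irx4 and 0.973% and 0.718% for Trp63. Krt5 and Krt14, the keratins of basal epithelium, had shares of 1.81% and 1.71% (Krt5) and 1.3% and 1.3% (Krt14) in DNp63 luminal cells, against 1.2% and 1.05% (Krt5) and 1.2% and 0.689% (Krt14) in CD1 luminal cells. Transgene reads and reads of the resident gene are not separated in the Trp63 values.

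Basal cells of the 2 kinds of mice were compared next. No member was called between DNp63 basal and CD1 basal cells in limma's test, where 0.639% of all genes were called; 0 had an unadjusted p under 0.05, and voom called 0 (1 unadjusted). Irx4 differed by 0.44 ± 0.32 (SE, limma adjusted p = 0.688), with a fold interval of 0.821 to 2.24, although both DNp63 basal libraries lay above both CD1 basal libraries. Irx1 differed by -0.31 ± 0.24 (0.71), with a fold interval of 0.55 to 1.18 and both DNp63 libraries below both CD1 libraries. Irx3 and Irx5 both differed by 0.01, with fold intervals of 0.793 to 1.27 and 0.756 to 1.34, and Irx2 by -0.09 (0.748 to 1.17). Without the first or second CD1 basal library the Irx4 difference was 0.68 or 0.20, and without the first or second DNp63 basal library that of Irx1 was -0.11 or -0.51. With 1 of these 4 basal libraries left out the small differences of Irx2 (-0.23 to 0.04), Irx3 (-0.13 to 0.14) and Irx5 (-0.19 to 0.21) took either sign. Of the 10 luminal markers, 6 were called lower in DNp63 basal than CD1 basal cells (median -1.0), and their part in the Irx values was not tested.

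**Figure D3:**
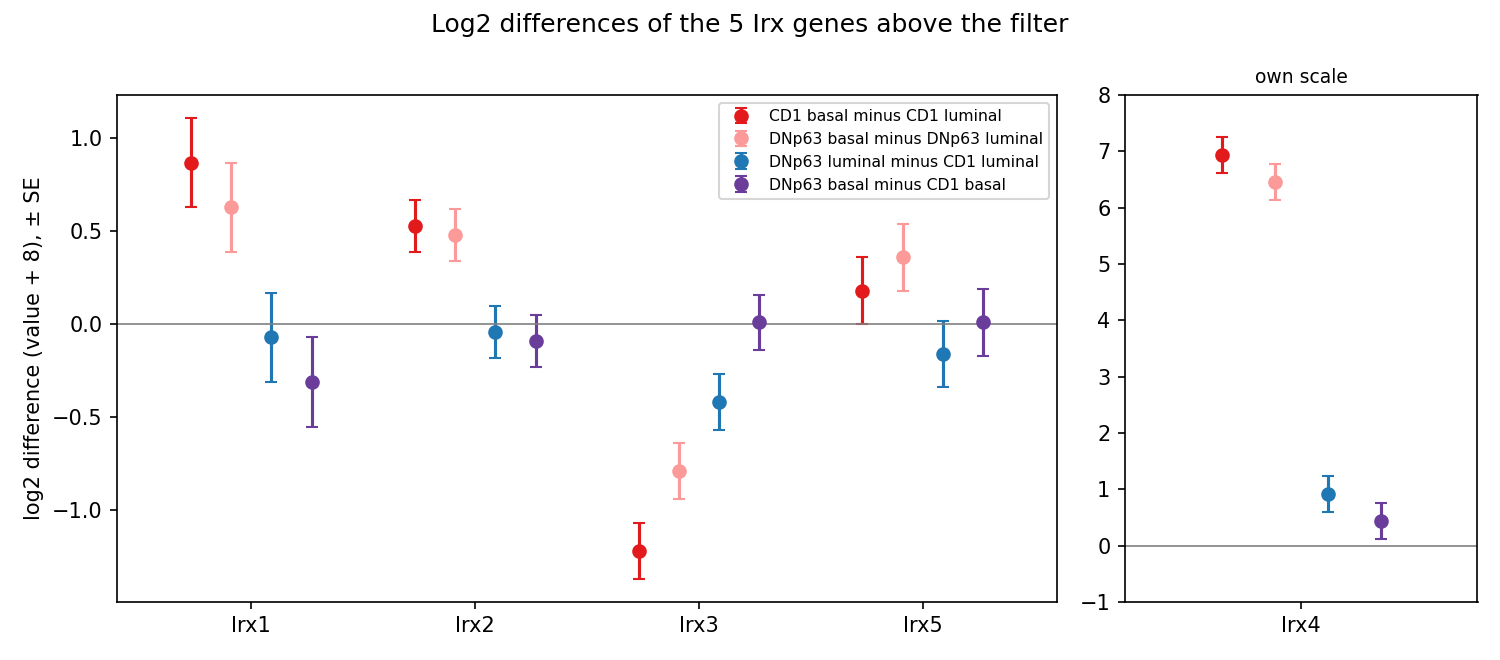
Log2 differences of the 5 Irx genes above the filter, with bars of 1 SE, in 4 comparisons; Irx4 has its own axis. Both gate comparisons place Irx4 at 6.45 to 6.93 and Irx3 below 0, and the DNp63 against CD1 differences lie between -0.42 and 0.92.

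The interaction, the DNp63 minus CD1 difference of basal cells less that of luminal cells, tested whether the gate difference changed between the mice. It was called for none of the 5 members, with 0 at an unadjusted p under 0.05 and 0 by voom, where 0.308% of all genes were called by limma. The values were 0.43 ± 0.21 (SE) for Irx3 (limma adjusted p = 0.549), -0.48 ± 0.45 for Irx4 (0.808), -0.24 ± 0.34 for Irx1 (0.891), 0.17 ± 0.26 for Irx5 (0.899) and -0.05 ± 0.20 for Irx2 (0.973). The Irx4 value was -1.02 with 1 unit added, 0.01 with 32 and -0.98 by voom, and with a library left out it ranged from -0.82 to -0.16. The leave-out ranges were -0.61 to 0.12 for Irx1, -0.18 to 0.09 for Irx2, 0.29 to 0.56 for Irx3 and -0.03 to 0.38 for Irx5, so that those of Irx1, Irx2 and Irx5 include both signs. In the interaction 3 of the 10 luminal markers were called, all lower (median -0.98).

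The neighbourhood of each cluster was read next. IrxA held 2 other genes of the table within its span, of which 1 was tested, and IrxB held 14, of which 3 were tested. With the 3 nearest tested protein-coding genes on each side, 16 of 28 neighbours were tested. From DNp63 luminal to DNp63 basal cells 3 rose and 6 fell, where 26.0% of all genes were higher and 22.2% lower (median -0.60, against -0.027 for all genes). Between the CD1 gates 3 were higher and 3 lower in basal cells, where 24.5% and 19.8% of all genes were (median -0.06). Between DNp63 and CD1 luminal cells 2 were higher, where 2.62% of all genes were. Between the basal groups (0 by voom) and in the interaction 0 were called, where 0.639% and 0.308% of all genes were. Many of these calls were lost without single libraries. With each library left out in turn, 2 of the 9 DNp63 calls (Aktip and Rpgrip1l), 1 of the 6 CD1 calls (Aktip) and 0 of the 2 luminal calls were kept throughout. Without the second CD1 basal library 1 neighbour was called between the CD1 gates and without the first DNp63 basal library 3, and without the first DNp63 basal library 3 were called between the DNp63 gates. Without the first or second DNp63 luminal library 5 and 4 were called there, and without the second DNp63 basal library 5. Between the luminal groups leaving out the second CD1 luminal or the first DNp63 luminal library left 1 call, and leaving out the second DNp63 luminal library left 0. In the interaction 1 was called without the second CD1 luminal library.

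Irx3os, a noncoding gene that overlaps Irx3 by 1653 bases on the opposite strand (91800415 to 91807539), moved in the direction of Irx3. It stood at 284 and 267 units in CD1 luminal and 203 and 192 in DNp63 luminal libraries, and among basal libraries 106 and 28 in those of CD1 and 13 and 54 in those of DNp63 mice. It was lower in basal cells by -2.15 ± 0.61 in CD1 mice (SE, limma adjusted p = 0.0198) and -2.44 ± 0.61 in DNp63 mice (0.0105). The first call was lost without the second CD1 basal library, and the second without the first DNp63 luminal or the first DNp63 basal library. No source used here states whether counting used strand, so reads of Irx3 and Irx3os cannot be told apart where they overlap. The ratio of Irx3os to Irx3 units was 0.135 to 0.168 in luminal and 0.0198 to 0.139 in basal libraries.

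Crnde, a long noncoding gene, starts 1505 bases from Irx5 and runs away from it on the opposite strand (92326033 to 92356120). It stood at 227 and 282 units in CD1 luminal and 239 and 220 in DNp63 luminal libraries, and among basal libraries 156 and 164 in those of CD1 and 135 and 136 in those of DNp63 mice. It was lower in basal cells in CD1 (-0.64 ± 0.23, SE, limma adjusted p = 0.0478) and DNp63 mice (-0.65 ± 0.23, 0.0429), while Irx5 was not called in DNp63 mice. The CD1 call was lost without any 1 of 7 libraries, all but the first CD1 luminal library, and the DNp63 call without any 1 DNp63 or CD1 basal library. Both were also lost with no filter or with only the groups compared. Gm20554, a noncoding gene that starts 256 bases from Irx2 on the opposite strand, had 32 to 123 units and was not called in any comparison.

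Fto, whose introns are known to hold distant enhancers of Irx3 and Irx5, was level, at 2146 to 2601 units over the 8 libraries, and was not called in any comparison. On the far side of IrxB, Mmp2, a gelatinase of stromal cells, was higher in basal cells of CD1 (3.37 ± 1.06, SE, limma adjusted p = 0.0298) and DNp63 mice (3.75 ± 1.06, 0.0178). Its CD1 luminal libraries stood at 103 and 1890 units, and the fibroblast marker sum was also higher in the second of these libraries (9144 and 44234). CD1 basal libraries held 3095 and 7306 units of Mmp2, with fibroblast sums of 16411 and 45925. The part of fibroblasts in the Mmp2 values was not tested. Leaving out the first CD1 luminal library or any 1 basal library ended the CD1 call, and the DNp63 call was lost without the second DNp63 luminal or either DNp63 basal library. The CD1 call was also lost with no filter or with only the groups compared. Without the first CD1 luminal library Mmp2 was lower in DNp63 than in CD1 luminal cells (-2.02, limma adjusted p = 0.0448), against 0.08 with all libraries. Ces1d, a carboxylesterase known from liver and fat, was higher in basal cells of CD1 (2.34, 0.0131) and DNp63 mice (1.72, 0.0427), at low values. Its luminal libraries held 0, 0, 3 and 0 units. CD1 basal libraries held 19 and 52, and DNp63 basal libraries 43 and 10. The adipocyte marker sum was also higher in basal cells, as given above, and its part was not tested. Ces1d passed the filter only through the second CD1 basal and the first DNp63 basal library. Without either of these libraries, with a filter of 100 units or with only the groups compared, it was not tested. The DNp63 call of Ces1d was also lost without any 1 CD1 or DNp63 luminal library, and with 32 units added or no filter. Aktip was lower in basal cells of both (-1.24, 0.00037, and -1.25, 0.000307).

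Rpgrip1l, a protein of the ciliary transition zone, rose by 2.10 from CD1 luminal to DNp63 luminal cells (SE 0.33, limma adjusted p = 0.0106), a call lost without the second DNp63 luminal library or with only the groups compared. It fell by 1.55 from DNp63 luminal to DNp63 basal cells (0.00482). Beside IrxA, Srd5a1, a steroid reductase, rose by 2.33 in DNp63 luminal cells (0.0156), and in DNp63 basal against luminal cells it fell by 1.51 (0.0139). Nsun2, an RNA methyltransferase, fell by 0.76 (0.0167) and Ice1 rose by 0.43 (0.0241) in the latter comparison. Lpcat1, a lysophospholipid acyltransferase, was higher in CD1 basal than CD1 luminal cells (0.77, 0.026). The Srd5a1 calls were lost without the second DNp63 luminal library in both comparisons, the first also without the second CD1 luminal or first DNp63 luminal library, and the second without the first DNp63 basal library. The other 3 calls were each lost without 2 or 3 of the libraries compared, and that of Lpcat1 also with only the groups compared.

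**Figure D4:**
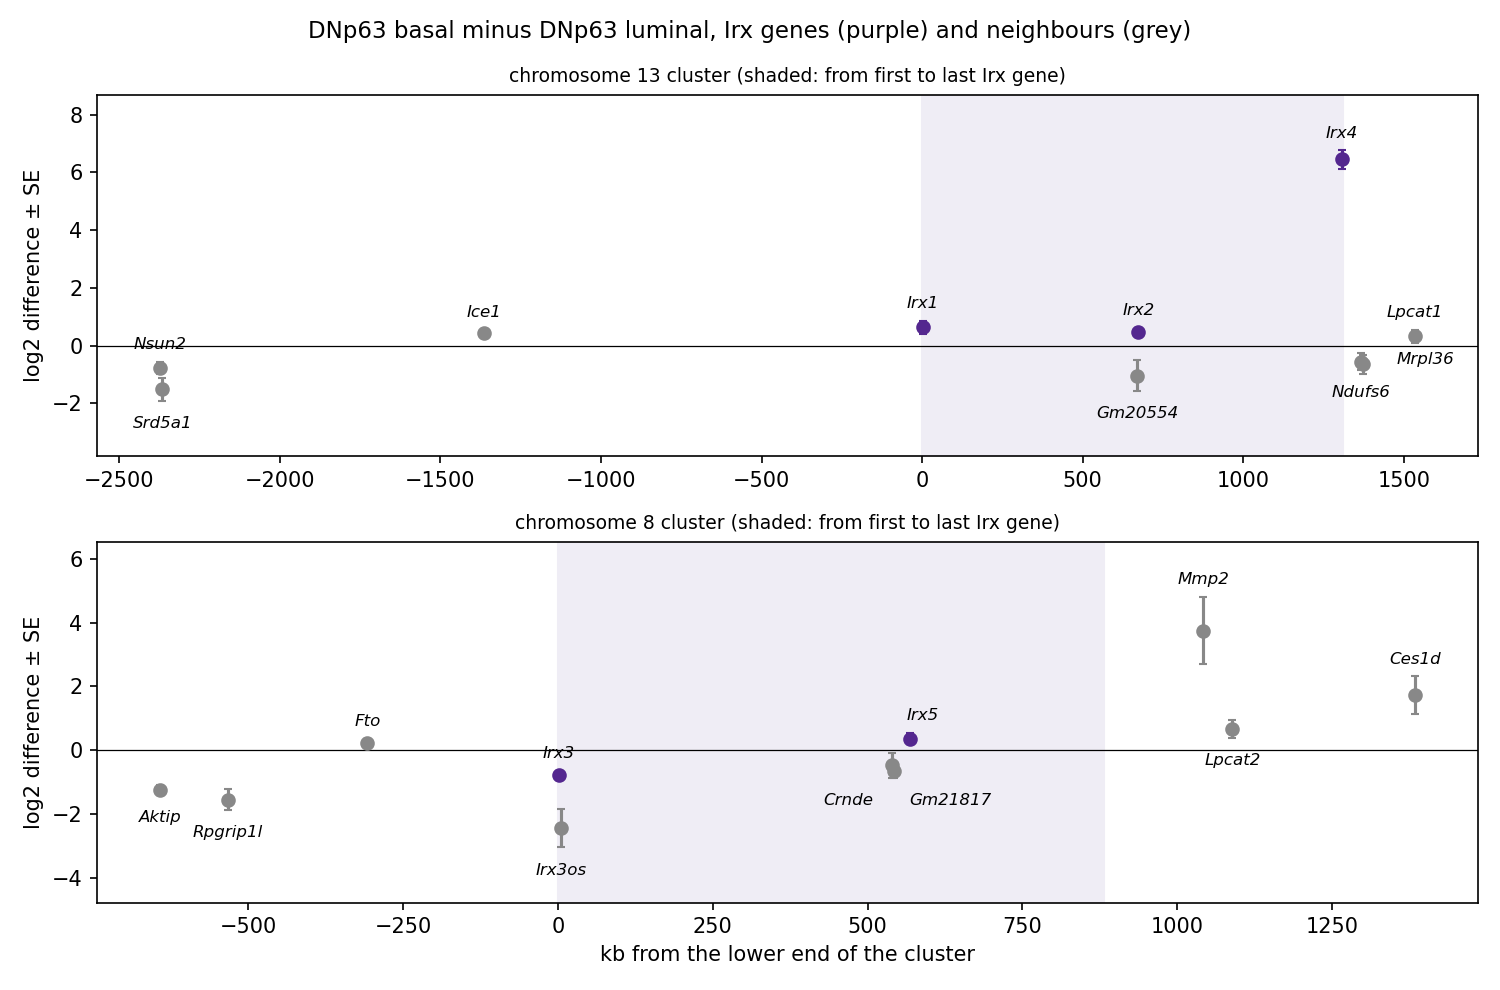
Log2 difference of DNp63 basal minus DNp63 luminal cells, with bars of 1 SE, for Irx genes (purple) and tested neighbours (grey) by distance in kb from the lower end of each cluster; the shading spans the first to the last Irx gene. Irx4 stands at 6.45 at one end of IrxA while Irx1 and Irx2 lie at 0.63 and 0.48, and Irx3 and Irx3os lie below 0.

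The other TALE homeobox genes encode partners of Hox proteins (Meis, Pbx and Pknox), repressors (Tgif) and Mkx, a regulator of tendon that is the nearest relative of the Iroquois class. Of a list of 12, 11 were tested, and Pbx4 (11 to 44 units) was not. From DNp63 luminal to DNp63 basal cells 5 rose and 2 fell, where 48.3% of all genes were called (median 0.92, against -0.027). Between the CD1 gates 6 were higher and 2 lower in basal cells, where 44.3% of all genes were called (median 0.90, against -0.003 for all genes). Tgif1 was the most abundant by units, at 7638 and 8339 in CD1 luminal and 7782 and 7153 in DNp63 luminal libraries, and among basal libraries 3709 and 3118 in those of CD1 and 2576 and 2621 in those of DNp63 mice. Like Irx3 it was lower in basal cells of CD1 (-1.23 ± 0.12, SE, limma adjusted p = 8.47e-05) and DNp63 mice (-1.44 ± 0.12, 3.1e-05).

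Meis1 was the other TALE gene that was lower in basal cells, by -1.03 (limma adjusted p = 0.00155) and -1.24 (0.000492). Pbx3 was higher in basal cells of CD1 mice by 2.48 (0.000144) and of DNp63 mice by 2.05 (0.000357). Meis2 (2.11 and 2.07), Mkx (1.49 and 1.81) and Pknox2 (2.36 and 1.1) were called higher in basal cells of both, and Tgif2 of CD1 mice alone (1.23, 0.0247, against 0.93, 0.0638, in DNp63 mice). Between DNp63 and CD1 luminal cells Pknox2 rose by 1.29 (0.0419) and Meis1 fell by 0.75 (0.0481), where 4.37% of all genes were called. Of the 11, 0 were called between the basal groups (0 by voom) or in the interaction. Over all genes 0.639% and 0.308% were called there, so 0 calls is near the background. Meis1 differed by -0.96 between the basal groups (limma adjusted p = 0.055), with an interaction of -0.21 (0.856). Meis1 stood at 1302 and 1401 units in CD1 luminal and 814 and 850 in DNp63 luminal libraries, and among basal libraries 623 and 695 in those of CD1 and 287 and 373 in those of DNp63 mice. With each library left out in turn, 5 of the 7 DNp63 gate calls (Meis1, Pbx3, Tgif1 and Mkx among them), 5 of the 8 CD1 gate calls (among them Meis1, Pbx3, Pknox2 and Tgif1) and 0 of the 2 luminal calls were kept throughout. Without the second CD1 basal library 5 were called between the CD1 gates, and without either CD1 luminal library 1 was called between the basal groups. Meis1 was called between the luminal groups only with both libraries of each luminal group and of CD1 basal, and Pknox2 only with all libraries or without the first CD1 luminal library.

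For each of the 5 members above the filter, the 3 genes with the nearest log2 profile over the 8 libraries were taken, by the root mean square difference after removing each gene's mean. Nearest to Irx4 were Krt14 (0.272), Krt5 (0.277) and the chemokine Cxcl14 (0.336), against a median of 3.397 over all genes. Nearest to Irx3 were the predicted gene Gm37342 (0.088), the selenocysteine lyase Scly (0.09) and the oxoprolinase Oplah (0.107), against 0.657. Scly stood at 607, 660, 406 and 513 units in the luminal and 280, 276, 249 and 262 in the basal libraries. Among the nearest to Irx1 were the kinase Camk1 (0.117) and Brms1l (0.133). Nearest to Irx2 were Dtnbp1 (0.062), Phf12 (0.062) and Ubr7 (0.067), and to Irx5 Btbd6 (0.081), Ccni (0.081) and Maged1 (0.082). The median distances were 0.661 for Irx1, 0.555 for Irx2 and 0.515 for Irx5. All distances use the 8 libraries, the CD1 gates on which the family was selected among them. A gene with as large a gate difference as Irx4 is bound to lie near other strongly basal genes and far from most genes. Its distances therefore describe that difference and support nothing further.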

How the data were processed

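The deposited table gave 1 column per library. The submitters' processing notes name STAR, HTSeq and the GRCm38 (mm10) build. No version, annotation release or strand setting is stated there. The library kit was Ovation Solo and the sequencer an Illumina NovaSeq, per the labels' protocols. The deposited values are a score that the authors made from read counts: reads per 20000000, rounded up, as the label and the column sums (20006569 to 20013862) show. Dividing by the value of 1 read gave whole reads for 99.8% to 99.9% of values above 0, where 20.7% to 36.0% would be met by chance. The value of 1 read was itself chosen to make this share highest, so the share is not an independent check.

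TMM factors (trims of 30% and 5%) scaled the values, 8 was added, and log2 values of 16900 genes with at least 40 in at least 2 libraries entered a linear model in limma 3.58.1 under R 4.3.3 (4 group means, trend, 4 residual and 4.617 prior degrees of freedom). Tests were two-sided, with Benjamini-Hochberg adjustment over all genes tested and calls at adjusted p under 0.05. The 2 libraries of each group were not identical, and their reads differed beyond sampling noise (chi-square over its degrees of freedom, 6.34 to 16.52). Members, gene lists and tests were chosen with earlier results of these data known. Named genes were the members, called neighbours and called TALE genes, and the 3 genes with the nearest profile to each member. Values of 2 genes that this rule names are not reported here. Gene coordinates come from GENCODE M21, in which 49326 of 49671 table genes were found. Alternatives were other scaling, pseudocounts of 1 and 32, other filters, voom on recovered reads, fits of the compared groups only, a replicate block and leaving out each library.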

Additional observations from a re-analysis of the deposited data

How the results depend on the processing

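The numbers of Irx genes called between DNp63 and CD1 luminal cells, between DNp63 and CD1 basal cells and in the interaction stayed at 0 under each alternative and with each library left out. In the luminal fit of only the groups compared Irx4 lay under the filter, was not tested and so could not be called. Between the DNp63 gates 3 to 4 were called under the other alternatives and 2 to 4 with a library left out, and the differences of Irx3 and Irx4 kept their direction and their call throughout. In CD1 mice the Irx4 difference was 7.88 with a pseudocount of 1, 5.57 with 32 and 7.76 by voom. With a library left out it ranged from 6.58 to 7.23, that of Irx2 from 0.36 to 0.62 and that of Irx5 from -0.02 to 0.39. The replicate numbers of the titles were fitted as a block. Deviations of same-numbered libraries correlated between the gates of CD1 (0.341) and of DNp63 mice (0.266) and not between the mice (-0.014 to 0.041), and the labels do not say what a number marks. With the block Irx1 was called between the DNp63 gates (0.63, limma adjusted p = 0.0234), Crnde was called between neither pair of gates, 1 TALE gene was called between the basal groups, and counts over all genes were 185 against 108 between the basal groups and 118 against 52 in the interaction.

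Of the TALE genes, 2 were called between the luminal groups, 1 with no further scaling, with a pseudocount of 1 or by voom, 0 with no filter or with only the groups compared, and 0 to 1 with a library left out. Between the basal groups 0 were called, against 1 with median-ratio factors, no further scaling or a pseudocount of 32, and 0 to 1 with a library left out. Between the CD1 gates 5 to 8 were called with a library left out. Of the neighbours, with only the groups compared 1 was called between the luminal groups and 2 between the CD1 gates. With a library left out 0 to 3 were called between the luminal groups, 3 to 10 between the DNp63 gates, 1 to 7 between the CD1 gates and 0 to 1 in the interaction. Without the first CD1 luminal library Mmp2 was lower in DNp63 than in CD1 luminal cells (-2.02, limma adjusted p = 0.0448), and over all leave-outs its difference ranged from -2.02 to 2.12. Over all genes, 739 were called between the luminal groups, 464 with no filter, 314 with only the groups compared and 141 to 972 with a library left out (141 and 255 without the second and first DNp63 luminal library). Between the basal groups 108 were called, 71 with a pseudocount of 1, 55 with no filter, 58 by voom and 3 to 186 with a library left out (3, 42, 10 and 19 without the 2 CD1 and 2 DNp63 basal libraries, and 186 and 183 without the CD1 luminal libraries). In the interaction 52 were called, 102 with a pseudocount of 32, 11 with no filter, 17 by voom and 4 to 133 with a library left out, at 133 and 106 without a CD1 luminal library and at most 7 without any other. With the longest transcript as length, an alternative chosen after seeing the data, IrxA shares were 59.0%, 63.6%, 81.5% and 81.3%. The cause of these changes was not tested. Depth limits Irx4 in luminal cells and Irx6 everywhere. In fits with a library left out the lone library is assumed to vary like the other groups. A fit of only the groups compared was not run for the interaction, which uses all 4 groups. The alternatives for neighbours and for counts over all genes were also chosen after seeing the data.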
